A study of Mus musculus with 10 samples.

Results

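Matrix remodelling in the kidney was followed through 10 genes: 4 matrix metalloproteinases (Mmp2, Mmp7, Mmp9 and Mmp14), 3 tissue inhibitors of metalloproteinases (Timp1, Timp2 and Timp3) and 3 lysyl oxidases (Lox, Loxl1 and Loxl2). They were chosen by name for their roles, and each matched exactly 1 of the 46517 gene IDs counted. All 10 passed the filter on low counts and were tested among 17823 genes. Mouse kidneys were sequenced as poly(A) RNA in 10 libraries. The series concerns APOL1, the human gene for apolipoprotein L1, with variants G1 and G2 that carry a risk of kidney disease, expressed in podocytes of the glomerulus. The genotype labels were G1-APOL1 (2 libraries, here G1), G2-APOL1 (2 libraries, here G2), wild type (single mutant) (3 libraries) and Control (3 libraries). What single mutant refers to is not stated in the labels, nor are the promoter, strain, age, sex or any treatment, and no label says that libraries come from different mice. P-values therefore measure the spread between these libraries, which may be technical. Libraries held 27596391 to 34815153 counts. The human transgene was not analysed here, so the labels were not checked against it. With library totals in place of TMM scaling the median of all genes moved by 0.28 (log2) in the risk alleles against Control and 79.0% of the calls were higher instead of 51.7%, while every member kept its direction there.

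Matrix metalloproteinases are zinc-dependent enzymes that cut collagens, gelatin, proteoglycans and other proteins outside the cell, and they are made as inactive precursors. Tissue inhibitors block the active enzymes, and Timp2 also serves as the bridge by which membrane-bound Mmp14 activates the precursor of Mmp2. Lysyl oxidases work the other way on the same substrates, since they oxidize lysines in collagen and elastin so that the fibres become crosslinked and harder to cut. All of these kinds of gene are known to be expressed in kidney scarring by fibroblasts, injured tubule cells and infiltrating leukocytes. Whole kidney was measured, so fewer cells of a type and less RNA per cell cannot be told apart.

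RefSeq's promoter table matched 5 of the 10 members by symbol. Promoters of 3 of these members are shown, a selection and not every match. In all 3 the window ends before the annotated gene begins, and all 3 members were among the genes that rose with the risk alleles. Each promoter shown is the 250 bases before the RefSeq start (GRCm38.p6), read 5′ to 3′ on the gene's strand. Capitals mark matches on either strand to the letters of an AP-1 site, TGANTCA. They also mark the TATA box, searched as TATAAA on both strands of each window. The third motif in capitals is the GC box, searched in the same way as GGGCGG. Mmp7 lies at chr9:7691840-7692089 on the plus strand, Mmp14 at chr14:54431348-54431597 on the plus strand and Timp1 at chrX:20869916-20870165 on the plus strand.
Mmp7: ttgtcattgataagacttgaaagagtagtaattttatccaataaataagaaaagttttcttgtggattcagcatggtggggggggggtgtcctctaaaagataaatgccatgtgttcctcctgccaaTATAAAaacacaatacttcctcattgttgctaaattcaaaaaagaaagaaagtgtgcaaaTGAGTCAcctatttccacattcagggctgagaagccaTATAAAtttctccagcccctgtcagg
Mmp14: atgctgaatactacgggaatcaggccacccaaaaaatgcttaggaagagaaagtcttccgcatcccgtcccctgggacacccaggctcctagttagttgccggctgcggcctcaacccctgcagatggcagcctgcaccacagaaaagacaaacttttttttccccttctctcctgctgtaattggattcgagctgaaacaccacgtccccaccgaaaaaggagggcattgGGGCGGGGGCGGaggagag
Timp1: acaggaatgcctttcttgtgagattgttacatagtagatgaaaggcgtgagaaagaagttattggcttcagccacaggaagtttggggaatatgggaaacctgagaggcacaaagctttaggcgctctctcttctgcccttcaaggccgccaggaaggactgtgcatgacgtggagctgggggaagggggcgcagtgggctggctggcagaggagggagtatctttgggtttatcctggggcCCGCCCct
The Mmp7 window held an AP-1 match 63 to 57 bases before the start and a TATA box 26 to 21 bases before it, with another TATA box 123 to 118 bases before it. The Mmp14 window held 2 GC boxes, at 19 to 14 and 13 to 8 bases before the start, and the Timp1 window held 1 on the opposite strand, 8 to 3 bases before it. Of 32851 windows of the same length, 6.75% held the AP-1 letters, 12.4% the TATA box and 32.7% the GC box. A further 4 motifs were searched on both strands: ETS (CAGGAAG, in 10.8% of windows), TCF/LEF (CTTTGAT, 3.21%), the CCAAT box (CCAAT, 33.8%) and the E-box (CACGTG, 6.02%). ETS letters occurred at 2 places of the Timp1 window and CCAAT letters in all 3 windows, where 1 CCAAT match in Mmp14 shares a base with a GC box and 1 in Mmp7 shares a base with a TATA box. These matches describe letters and not bound sites.

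Against Control, 9 of the 10 members rose with the risk alleles (G1 and G2, averaged with equal weight) and 1, Timp3, fell. Of all genes tested 37.3% were called in this comparison, 19.3% higher and 18% lower, where called means a Benjamini-Hochberg adjusted p under 0.05 in edgeR's quasi-likelihood test. The median log2 fold change was 2.09 over the members and 0.00 over all genes. In all 10 members the 4 libraries with risk alleles lay apart from the 3 Control libraries, as they did for 38.4% of all genes. Against wild type (single mutant), 8 members rose, 1 fell and 1 (Mmp9) was not called, with 39.9% of all genes called (20.6% higher, 19.3% lower) and a median of 1.84 over the members. Both comparisons share the libraries with risk alleles. The calls of Mmp9 depended on single libraries, as given below, and the other 9 members kept their call and direction against both reference groups when any 1 library was left out.

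**Figure D1:**
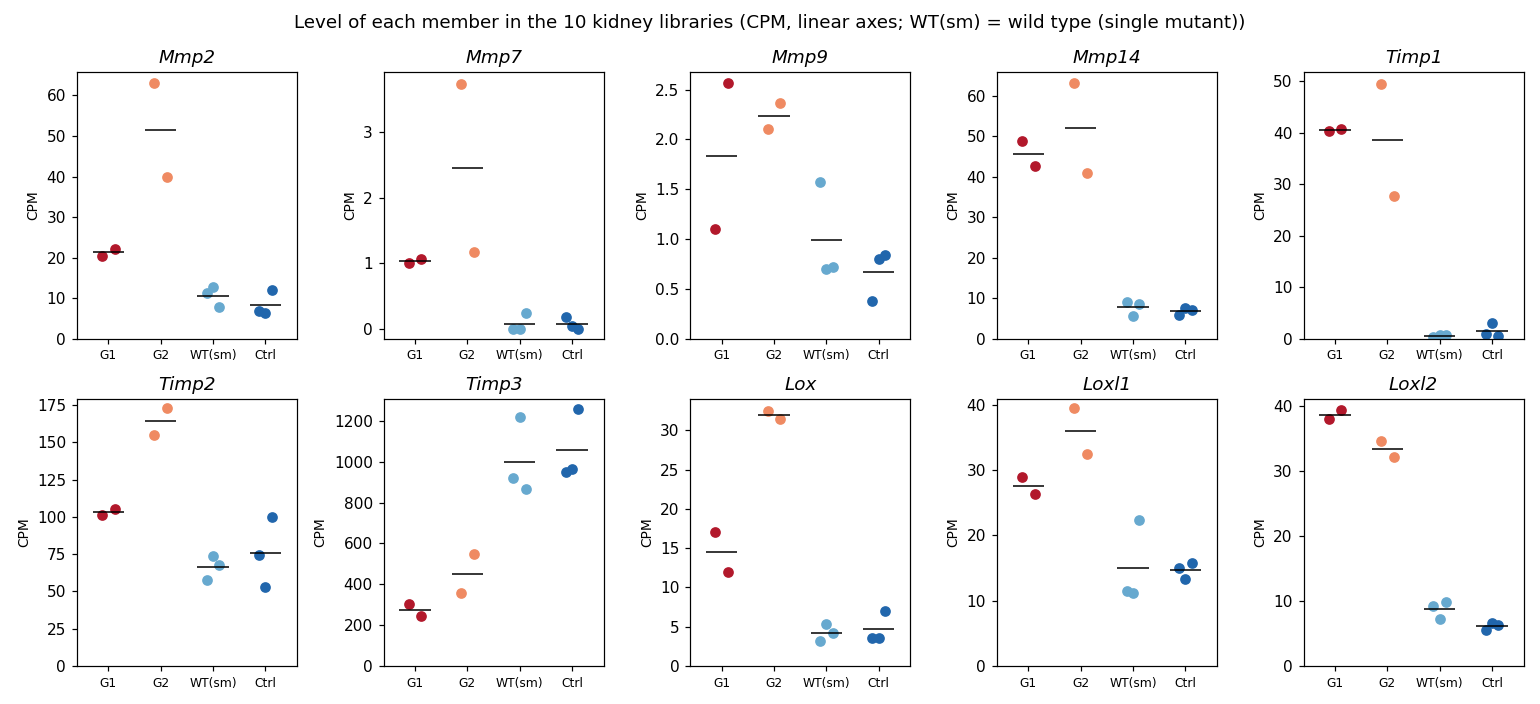
Counts per 1000000 (CPM, on TMM-scaled library sizes, linear axes) of the 10 members; each point is a library, each bar the group mean (n = 2 for G1 and G2, n = 3 for the others). The risk-allele libraries lie above all reference libraries for 8 members and below them for Timp3, while 1 G1 library of Mmp9 at 1.1 lies below the highest reference library at 1.57.

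Among the proteases, Mmp14, the membrane-anchored collagenase that also activates other metalloproteinases, rose by 7.23-fold. It stood at 48.8 and 42.5 CPM in G1, 63.0 and 40.9 in G2, 9.03, 5.66 and 8.55 in wild type (single mutant), and 5.73, 7.0 and 7.46 in Control. Every library with a risk allele was higher than every reference library, and the ranges of G1 and G2 overlapped. This was a log2 fold change of 2.85 ± 0.22 (SE) against Control (adjusted p = 7.50e-05) and 2.65 ± 0.22 against wild type (single mutant) (adjusted p = 8.09e-05). Mmp14 (ENSMUSG00000000957.9) spans chromosome 14 from 54431612 to 54445364 in GRCm38.

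Mmp2, the secreted gelatinase of fibroblasts that Mmp14 activates, was higher in both alleles and reached its highest levels in G2. Its CPM was 20.5 and 22.1 in G1, 63.0 and 40.0 in G2, 11.2, 12.8 and 7.73 in wild type (single mutant), and 6.73, 6.37 and 12.1 in Control. The 2 G2 libraries were above the 2 G1 libraries, which were in turn above the 6 reference libraries. Against Control the log2 fold change was 1.98 ± 0.29 (adjusted p = 0.000978), and against wild type (single mutant) it was 1.65 ± 0.28 (adjusted p = 0.00191). The gene (ENSMUSG00000031740.7) lies on chromosome 8 from 92827291 to 92853420.

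Mmp7, or matrilysin, a small protease of epithelial cells that is nearly silent in the healthy kidney, was close to 0 in the reference libraries. Counts were 38 and 42 in G1, 115 and 47 in G2, 0, 0 and 7 in wild type (single mutant), and 5, 1 and 0 in Control. In CPM these were 0.996 and 1.06 in G1, 3.73 and 1.17 in G2, and at most 0.238 in any reference library. All 4 risk-allele libraries were higher than the 6 others, and G2 replicate 1 was the highest. For the libraries at 0, a count of 0 allows up to 0.0957 and 0.0964 CPM in wild type (single mutant) and 0.109 CPM in Control on their total counts (3 counts, counting error only). The fitted log2 fold change was 4.37 ± 1.05 against Control (adjusted p = 0.011) and 4.23 ± 1.02 against wild type (single mutant) (adjusted p = 0.0105), and at these counts it depends on the prior count of the fit. Leaving out 1 library moved it between 3.84 (without G2 replicate 1) and 6.12 (without Control replicate 1) against Control and between 3.66 and 8.66 against wild type (single mutant), where the highest leaves out replicate 3 of that group, so that the others are at 0 counts and the value is no bound. Mmp7 (ENSMUSG00000018623.9, chromosome 9, 7692090 to 7699585) overlaps the antisense gene AV064505, which had 0 or 1 count in each library.

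Mmp9 (ENSMUSG00000017737.2, chromosome 2, 164940780 to 164955850), the gelatinase stored in neutrophil granules and made by macrophages and injured epithelium, was the member with the least certain rise. Its counts were 42 and 102 in G1, 65 and 95 in G2, 46, 19 and 21 in wild type (single mutant), and 11, 22 and 21 in Control, or 1.1 and 2.57, 2.11 and 2.37, 1.57, 0.694 and 0.715, and 0.382, 0.797 and 0.836 CPM. All 4 risk-allele libraries were above the Control libraries, whereas wild type (single mutant) replicate 1 was above G1 replicate 1. The log2 fold change was 1.60 ± 0.45 against Control (adjusted p = 0.0227) and 1.02 ± 0.43 against wild type (single mutant) (adjusted p = 0.0904, not called). Without G1 replicate 2 or Control replicate 1 the first call was lost (1.23, adjusted p = 0.0783, and 1.31, adjusted p = 0.0786), and without wild type (single mutant) replicate 1 the second was gained (1.52, adjusted p = 0.0386), as it was with library totals alone (1.31, adjusted p = 0.0403). Over the libraries left out the second value ranged from 0.65 (without G1 replicate 2) to 1.52. Neutrophil markers summed to 4.54 to 6.78 CPM in G1, 4.81 to 5.91 in G2, 1.23 to 2.35 in wild type (single mutant) and 1.51 to 3.08 in Control over 12 genes. Of these 4 passed the filter and 3 rose in the risk alleles against Control, where 19.3% of all genes were called higher. Of the granule markers, Elane and Camp had 0 counts in G1 and Mpo and Ngp had 0 in G2, while Mpo, Elane, Camp and Stfa2l1 had 0 in wild type (single mutant) and Ngp in Control. Their part in the level of Mmp9 was not tested.

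The inhibitors did not move together: Timp1 and Timp2 rose and Timp3 fell. Timp1, a secreted inhibitor that is induced in injured and inflamed tissue, had the largest fitted fold change among the members for the alleles together, while in G2 alone that of Mmp7 was larger (31.9-fold against 25.9-fold). It was at 40.3 and 40.7 CPM in G1, 49.4 and 27.7 in G2, 0.376, 0.658 and 0.715 in wild type (single mutant), and 0.868, 3.01 and 0.557 in Control. The lowest library with a risk allele was above the highest reference library, Control replicate 2, whose 3.01 CPM was the highest of the 6. Its fitted log2 fold change was 4.73 ± 0.55 against Control (adjusted p = 0.000354) and 6.07 ± 0.60 against wild type (single mutant) (adjusted p = 0.000155). Timp1 (ENSMUSG00000001131.10, chromosome X, 20870166 to 20874735) lies inside the opposite-strand gene Syn1, with no shared exon.

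Timp2, the inhibitor that also takes part in activating Mmp2, rose the least of the 9. Its CPM was 101 and 105 in G1, 155 and 173 in G2, 57.3, 73.8 and 67.4 in wild type (single mutant), and 74.2, 53.0 and 100.1 in Control. Control replicate 3 came within 1 CPM of the lower G1 library, whereas both G2 libraries were well above the rest. Timp2 (ENSMUSG00000017466.8, chromosome 11, 118301069 to 118355740) overlaps Cep295nl on the same strand, to which 0 to 9 counts per library were assigned. In log2 units the rise was 0.78 ± 0.19 against Control (adjusted p = 0.0131) and 0.97 ± 0.19 against wild type (single mutant) (adjusted p = 0.00425).

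Timp3, the inhibitor that binds to the matrix and also blocks ADAM proteases, was the most abundant member in the reference kidneys and the only member that fell. It went from 950.2, 964 and 1257 CPM in Control and 919.6, 1218 and 867 in wild type (single mutant) to 303 and 244 in G1 and 355 and 549 in G2. All 4 risk-allele libraries were below the 6 others, and the G1 libraries were the lowest. Its log2 fold change was -1.59 ± 0.19 against Control (adjusted p = 0.000462) and -1.51 ± 0.19 against wild type (single mutant) (adjusted p = 0.000526). Timp3 (ENSMUSG00000020044.12, chromosome 10, 86300372 to 86349506) lies within Syn3 on the opposite strand and shares exon bases with it. Counts assigned to Syn3 were 45 to 315 per library, against at least 9692 for Timp3. Proximal tubule markers fell with it: all 8 fell against Control, with summed levels of 14412 to 15689.6 CPM in Control, 3119 to 3727 in G1 and 5872 to 6682 in G2. Their part in the level of Timp3 was not tested.

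The crosslinking enzymes all rose. Loxl2, which crosslinks type IV collagen of basement membranes among other substrates, had the smallest standard error of the members. Its CPM was 38.0 and 39.4 in G1, 34.7 and 32.2 in G2, 9.24, 7.27 and 9.81 in wild type (single mutant), and 5.55, 6.52 and 6.25 in Control. Libraries within a group differed little, and here G1 was above G2. Loxl2 (ENSMUSG00000034205.15) lies on chromosome 14 from 69609068 to 69695834. The log2 fold change was 2.56 ± 0.13 against Control (adjusted p = 2.88e-05) and 2.04 ± 0.13 against wild type (single mutant) (adjusted p = 3.49e-05).

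Lox, the founding lysyl oxidase and a crosslinker of fibrillar collagen and elastin, followed a different order. It was at 17.0 and 12 CPM in G1, 32.5 and 31.4 in G2, 3.15, 5.33 and 4.22 in wild type (single mutant), and 3.5, 3.55 and 7.04 in Control. Both G2 libraries were above both G1 libraries, and no reference library reached either. The log2 fold change was 2.20 ± 0.30 against Control (adjusted p = 0.000749) and 2.35 ± 0.30 against wild type (single mutant) (adjusted p = 0.000528). Lox (ENSMUSG00000024529.12, chromosome 18, 52516067 to 52529867) overlaps the antisense gene AC161119.1, and without a stated strand setting reads of the pair cannot be told apart.

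Loxl1, an enzyme needed for the upkeep of elastic fibres, rose less. Its CPM was 28.9 and 26.4 in G1, 39.5 and 32.5 in G2, 11.5, 11.2 and 22.3 in wild type (single mutant), and 15, 13.3 and 15.7 in Control. Wild type (single mutant) replicate 3 was the highest reference library and still lower than the lowest risk-allele library. Loxl1 (ENSMUSG00000032334.9) spans 58287738 to 58313186 on chromosome 9. The log2 fold change was 1.11 ± 0.24 against Control (adjusted p = 0.0067) and 1.07 ± 0.24 against wild type (single mutant) (adjusted p = 0.007).

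**Figure D2:**
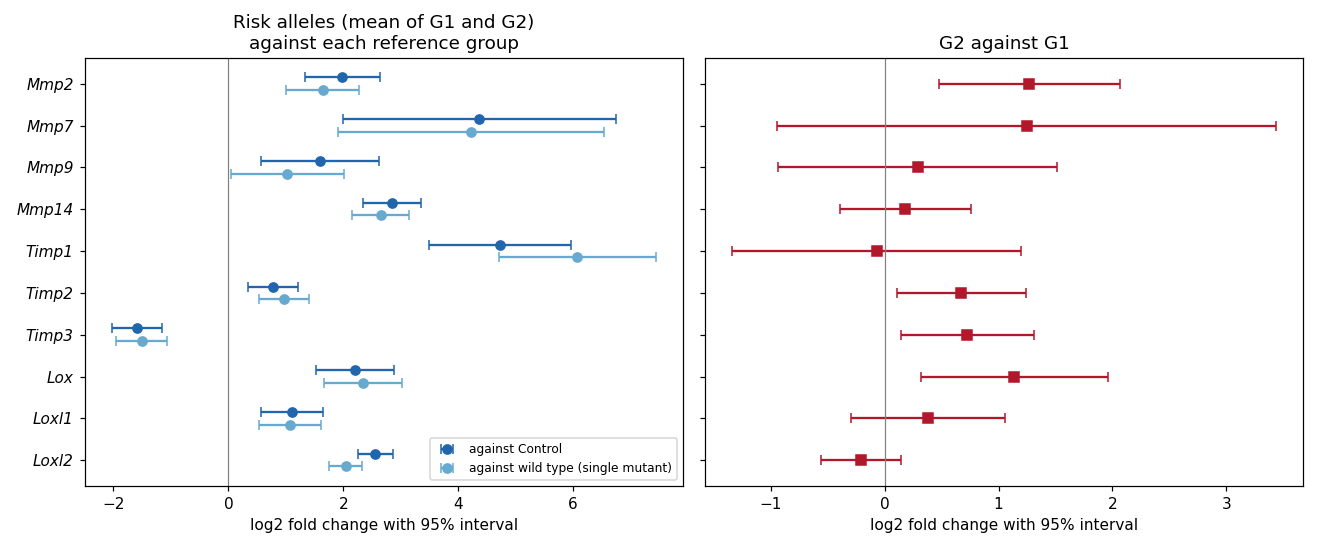
Log2 fold changes with 95% intervals from edgeR's quasi-likelihood fit over all 10 libraries, for the mean of G1 and G2 against each reference group (left) and for G2 against G1 (right). Timp3 alone lies left of 0 on the left, at -1.59 and -1.51, and on the right the intervals of Mmp2, Timp2, Timp3 and Lox lie above 0 before adjustment over all genes.

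Between the reference groups no member was called by edgeR, DESeq2 or limma-voom (1, Loxl2, had an unadjusted p under 0.05 in edgeR), and none of all 17823 genes was called in edgeR's quasi-likelihood test (724 had an unadjusted p under 0.05), 0 in limma-voom (583) and 14 in DESeq2 (714). In Loxl2 the wild type (single mutant) libraries (7.27 to 9.81 CPM) lay above the Control libraries (5.55 to 6.52 CPM), with a log2 difference of 0.52 ± 0.13, a 95% interval of 0.22 to 0.82 and an adjusted p of 1. It was the 1 member whose reference groups did not overlap, against 7.81% of all genes. For Timp1 the difference was -1.34 with an interval of -2.71 to 0.03, and for Mmp7 the interval ran from -3.04 to 3.33, so neither pins down a difference. For Timp2 the interval was -0.66 to 0.26 and for Timp3 -0.55 to 0.39.

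Each allele was also set against Control, with the same Control libraries in both. In G1, 7 members rose (19.5% of all genes), Timp3 fell (17.9%), and Mmp9 (1.45 ± 0.51, adjusted p = 0.0513) and Timp2 (0.44 ± 0.23, adjusted p = 0.155) were not called, where 37.3% of all genes were called. The 10 members lay apart from Control in G1, as 64.3% of all genes did. In G2, 9 members rose (12.7% of all genes) and Timp3 fell (8.86%), where 21.6% of all genes were called, and the 10 members lay apart, as 50.1% of all genes did. Each arm had 2 libraries, and single libraries carried some of these calls. Without G1 replicate 2 the G1 calls of Mmp2 (adjusted p = 0.0605), Mmp7 (0.0998) and Loxl1 (0.0813) were lost and 5 members stayed called, and the Loxl1 call was also lost without G1 replicate 1 or any 1 Control library. The G1 call of Mmp7 was lost without G1 replicate 1, Control replicate 2 or Control replicate 3 as well. Mmp9 in G1 was gained in 7 of the other settings and libraries left out, among them G1 replicate 1 (1.94, adjusted p = 0.0386), and Timp2 in G1 without Control replicate 3 (0.69, adjusted p = 0.0225) and with library totals alone (0.74, adjusted p = 0.0242), where all 10 members were called in G1. Without G2 replicate 1 the G2 calls of Mmp7 (adjusted p = 0.083), Mmp9 (0.113), Timp3 (0.0556) and Loxl1 (0.0734) were lost and 6 members stayed called. The G2 call of Mmp9 was lost without any 1 of the G2 or Control libraries, and that of Timp2 without G2 replicate 2 (adjusted p = 0.0504).

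The difference between the alleles was tested directly. In edgeR's quasi-likelihood test no member differed between G2 and G1, where 6.72% of all genes were called (3.84% higher and 2.88% lower in G2), and 4 members had an unadjusted p under 0.05. Mmp2 was higher in G2 by a log2 difference of 1.27 ± 0.35 (95% interval 0.48 to 2.07, adjusted p = 0.0644), and Lox by 1.14 ± 0.36 (0.32 to 1.96, adjusted p = 0.0954). Both were called in DESeq2 (adjusted p = 0.0104 for Mmp2 and 0.0299 for Lox) and in limma-voom (0.0246 and 0.0182). Without Control replicate 3 both were called in edgeR (0.036 and 0.0408), and without wild type (single mutant) replicate 3 Mmp2 was (0.0499). Over the alternatives that left out 1 library or changed the scaling, filter, tool or groups, 5 called Mmp2 and 4 called Lox. Timp3 (0.72 ± 0.26, adjusted p = 0.126) and Timp2 (0.67 ± 0.25, adjusted p = 0.139) were also higher in G2 in both libraries, without being called. For Mmp14 the interval was -0.39 to 0.76, for Loxl2 -0.56 to 0.14, for Loxl1 -0.30 to 1.06 and for Timp1 -1.34 to 1.2. Groups of 2 libraries did not overlap for 7 members, a share that 55.8% of all genes also reached, so a gap alone says little here.

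Marker levels of other cells also differed between the alleles. Of all genes, 6.72% were called between the alleles, 3.84% higher and 2.88% lower in G2. Summed over 10 fibroblast genes, among them Col1a1, Col1a2 and Col3a1, the level was 591 to 813 CPM in G1, 1409 to 1858 in G2, 305 to 369 in wild type (single mutant) and 266 to 435 in Control, and 5 of the 10 were called higher in G2 than in G1. In G1 against Control 3 of them rose, 3 fell and 4 were not called, with a median of -0.41, where 37.3% of all genes were called. Without these 3 collagens, a choice made after the values were seen, the other 7 summed to 107 to 149 CPM in G1, 339 in both G2 libraries, 124 to 165 in wild type (single mutant) and 141 to 218 in Control. Macrophage markers, by contrast, overlapped between the alleles, with 718 to 951 CPM in G1 and 716 to 1091 in G2, against 144 to 222 in the reference libraries. All 10 rose in the risk alleles against Control, where 19.3% of all genes were called higher. Markers of injured tubules were higher in G1 (20475 to 29625 CPM) than in G2 (4746 to 8472 CPM), with 704 to 1300.5 CPM in the reference libraries, and 3 of the 8 were called lower in G2 and 5 not called. Most of that sum was Spp1, the gene for osteopontin, and without it the other 7 summed to 2853 to 3539 CPM in G1, 1326 to 1547 in G2 and 231 to 475 in the reference libraries. Endothelial markers were at 300.4 to 329 CPM in G1, 548 to 779 in G2 and 379 to 695 in the reference libraries, with 4 of 8 called higher in G2 than in G1. Podocyte markers, from the cells named in the series title, were at 233 to 235 CPM in G1 and 286 to 328 in G2, within the 204 to 553 CPM of the reference libraries. The part of these cells in the members' levels was not tested.

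Levels of different genes were compared as CPM per 1000 bases of merged exon length, which lowers genes with many annotated transcript ends. In Control the order was led by Timp3 at 130 ± 21.3 (SD, n = 3) and Timp2 at 19.5 ± 6.06, followed by Loxl1 at 4.44 ± 0.378 and Mmp2 at 2.49 ± 0.951. Timp1 (1.66 ± 1.5), Mmp14 (1.13 ± 0.151), Loxl2 (1.13 ± 0.0922) and Lox (0.983 ± 0.425) came next and did not differ beyond their spread, and Mmp9 (0.19 ± 0.0711) and Mmp7 (0.0655 ± 0.0857) came last. In G1 the order was Timp1 (45.6 ± 0.37, SD, n = 2), Timp3 (33.6 ± 5.07) and Timp2 (26.4 ± 0.696), and in G2 it was Timp3 (55.5 ± 16.8), Timp1 (43.4 ± 17.3) and Timp2 (42.1 ± 3.41), which overlapped. In G1, Loxl1 (8.38 ± 0.54), Mmp14 (7.66 ± 0.747), Loxl2 (7.16 ± 0.175) and Mmp2 (6.32 ± 0.328) followed, whereas in G2 it was Mmp2 (15.3 ± 4.83) that followed, ahead of Loxl1 (10.9 ± 1.49), Mmp14 (8.71 ± 2.63), Lox (6.69 ± 0.157) and Loxl2 (6.2 ± 0.328).

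Within the inhibitors the shares shifted. Together the 3 inhibitors were at 103 and 108 CPM per 1000 bases in G1, 139 and 143 in G2, 125 to 169 in wild type (single mutant) and 135 to 181 in Control, so the G2 sums lay inside the reference range and the G1 sums below it. Timp3 made up 85.4% to 88.4% of this sum in the 6 reference libraries, 29.2% and 34.3% in G1, and 31.4% and 47.1% in G2. Timp1 went from between 0.331% and 2.5% in the reference libraries to 41.8% and 44.6% in G1 and 21.8% and 40.1% in G2. The summed crosslinking enzymes were at 17.8 and 19.4 CPM per 1000 bases in G1 and 22.4 and 25.2 in G2, above the 5.85 to 9.47 of the reference libraries. Loxl1 made up 57.9% to 72.1% of them in the reference libraries and 44.0% to 47.5% in the risk-allele libraries. The share of Loxl2 was 36.3% and 40.9% in G1 and 25.5% and 26.6% in G2, while that of Lox was 14.1% and 18.4% in G1 and 27.0% and 29.4% in G2.

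**Figure D3:**
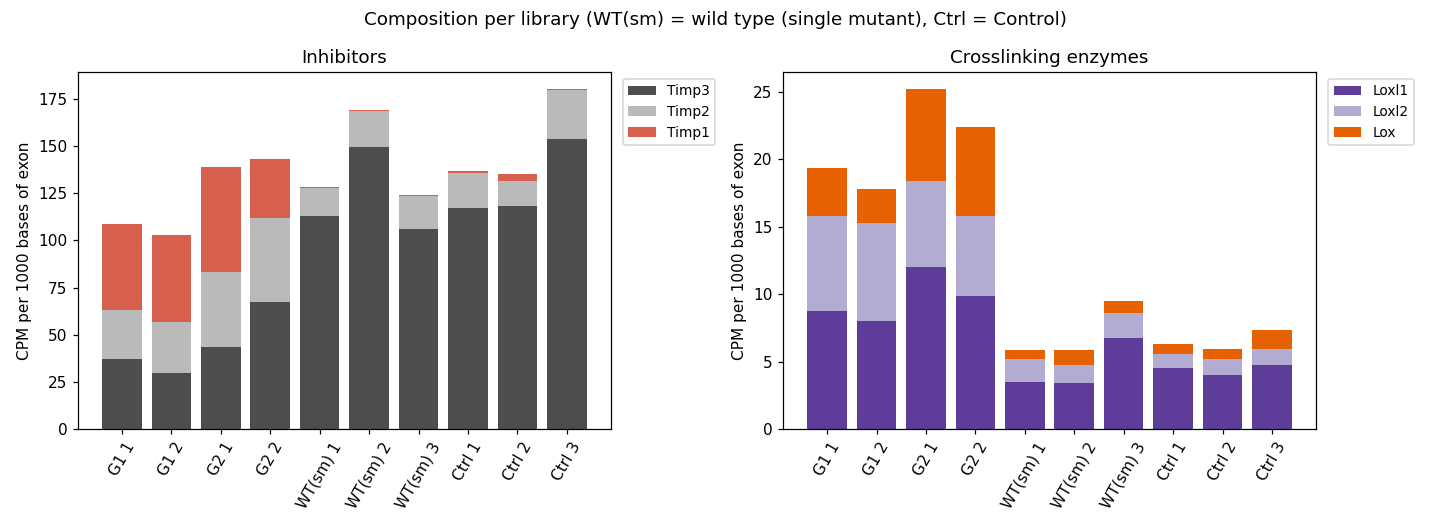
Stacked levels (CPM per 1000 bases of merged exon length) of the 3 inhibitors (left) and the 3 crosslinking enzymes (right) in each of the 10 libraries. Timp1 is barely visible in the reference libraries, at no more than 2.5% of the inhibitors, and makes up 21.8% to 44.6% in those with risk alleles, while the crosslinking enzymes are taller in every risk-allele bar.

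Protease transcripts rose against the summed inhibitor transcripts, which were mostly Timp3 in the reference libraries, but not in every pair. The 4 proteases summed to 0.143 and 0.15 of the inhibitors in G1 and 0.24 and 0.143 in G2, against 0.0292 to 0.0413 in wild type (single mutant) and 0.0236 to 0.0277 in Control. The 4 libraries with risk alleles were thus all higher, by a mean log2 difference of 2.70 from Control, a description to which no test was applied. Timp3 made up 85.4% to 88.4% of the inhibitor sum in the reference libraries, so this ratio depends on its fall. It does not show that the proteases rose against Timp1 and Timp2 together. Mmp14 over Timp2 was 0.316 and 0.265 in G1 and 0.266 and 0.154 in G2, above the 0.0457 to 0.103 of the reference libraries. Mmp2 over Timp2 was 0.235 and 0.244 in G1 and 0.471 and 0.266 in G2, above the highest reference library at 0.227 by little in G1. Mmp9 over Timp1 went down instead, from 0.0665 to 1.05 in the reference libraries to 0.00686 to 0.0215 in the risk-allele libraries. Transcript ratios say nothing of the activity of the proteins, which are made as precursors.

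**Figure D4:**
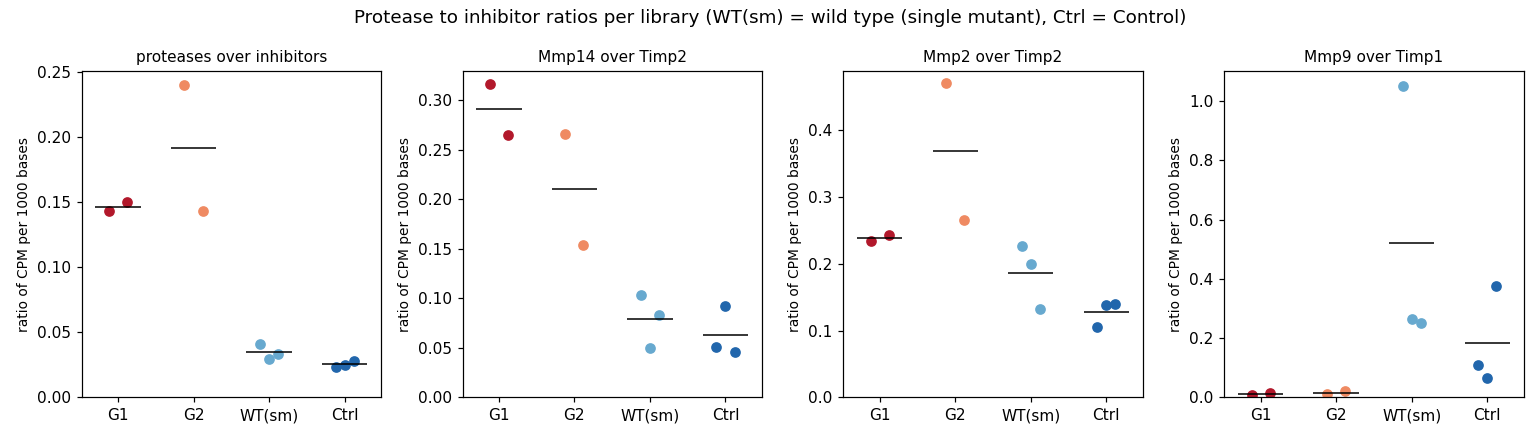
Ratios of CPM per 1000 bases for the 4 summed proteases over the 3 summed inhibitors and for 3 single pairs; points are libraries and bars are group means (n = 2, 2, 3 and 3). The risk-allele libraries are higher in the first 3 panels, with the lowest at 0.143 against 0.0413 in the first, and lower in the panel of Mmp9 over Timp1.

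For each member the genes with the most similar pattern were sought among 14355 genes averaging 1 CPM or more, by the root mean square difference of log2(CPM + 0.5), each gene centred on its mean over the 10 libraries. Mmp2 and Lox had the same nearest gene, Col1a2, a chain of type I collagen, at 0.2 and 0.24 on that scale, where the members' own root mean square spread was 1 and 1.2. Col1a2 was at 200.4 ± 40.9 CPM (SD, n = 2) in G1, 469 ± 120.1 in G2, 80.8 ± 9.37 (n = 3) in wild type (single mutant) and 70.1 ± 24.1 in Control. It was chosen for its likeness, so its order of groups is no further result. The nearest gene to Loxl1 was Dse, an enzyme of dermatan sulfate synthesis, at 0.088 (spread of Loxl1 0.61), and the nearest to Timp3 was Abhd3, at 0.17 (spread of Timp3 0.82). The nearest gene to Timp1 was the monocyte chemokine Ccl2, at 0.54 (spread of Timp1 2.4), and Ccl2 was at 53.3 ± 2.89 CPM in G1 and 28.6 ± 9.42 in G2 against 1.07 ± 0.524 in Control. The libraries fall apart by genotype, and genes with the same split resemble each other for that reason alone.

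The other genes of the pathway were taken from lists chosen by role. Candidates for naming were up to 4 per list with the lowest p in the risk alleles against Control, and some chosen by name. The genes given below were selected from them with their values known, so they are not always those with the lowest p. Among the other metalloproteinases, 14 of 18 were tested, of which 6 rose and 8 were not called, with a median log2 fold change of 0.96 beside 0.00 over all genes. Over all genes 37.3% were called in this comparison, which is the background for this and the following lists. Mmp23, a membrane protease, stood at 13.5 ± 0.745 CPM in G1 and 11.1 ± 0.0685 in G2 beside 4.39 ± 0.447 in Control (log2 fold change 1.48 ± 0.15, adjusted p = 0.000205). Mmp10, a stromelysin, had 0 counts in all Control libraries and 1.53 ± 0.0614 CPM in G1 and 0.308 ± 0.0224 in G2, which is at least 41.6-fold and at least 8.38-fold higher against a floor of 3 counts over the Control group.

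ADAM and ADAMTS proteases, which shed membrane proteins and cut proteoglycans, were tested for 25 of 27 genes, and 14 rose, 1 fell and 10 were not called. Adamts1, which cleaves large proteoglycans, was at 199 ± 16.8 CPM in G1, 103 ± 18.5 in G2 and 33.3 ± 7.09 in Control (2.10 ± 0.18, adjusted p = 0.000104). Adam8, a sheddase of leukocytes, stood at 28.3 ± 1.82 CPM in G1 and 8.42 ± 2.88 in G2 beside 1.52 ± 1.09 in Control (3.33 ± 0.58, adjusted p = 0.00252). In both genes the G1 level was the higher, the reverse of the order of Mmp2 and Lox, and the difference between alleles was called for Adamts1 (-0.95 ± 0.22, adjusted p = 0.0388) and not for Adam8 (-1.75 ± 0.67). Adam12 had the order of Mmp2 and Lox, at 6.49 ± 0.0531 CPM in G1, 13.6 ± 3 in G2 and 2.28 ± 0.236 in Control, without being called between the alleles. Of the 25 tested, 2 were called higher and 2 lower in G2 than in G1, where 6.72% of all genes were called.

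Of the plasminogen activator system, which makes plasmin and so feeds the activation of metalloproteinases, 8 of 9 genes were tested, and 4 rose, 1 fell and 3 were not called. Serpinf2, the inhibitor of plasmin, fell to 98.7 ± 45.8 CPM in G1 and 335 ± 84.5 in G2, with 551 ± 39.5 in Control (-1.60 ± 0.25). Plat, a plasminogen activator, was called higher (1.51 ± 0.45, adjusted p = 0.0274), but not without G1 replicate 1, G1 replicate 2, G2 replicate 2, Control replicate 2 or Control replicate 3. Its level was 374 to 461 CPM in G1, whereas the 96 to 117 CPM of G2 lay within the 43.6 to 122 of Control.

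Cathepsins, lysosomal proteases of which some also cut collagen, had 6 of 13 higher, 1 lower and 6 not called. Ctsc, which activates proteases of leukocyte granules, had the lowest p and was at 79.6 ± 6.62 CPM in G1, 56.5 ± 6.17 in G2 and 17.9 ± 2.58 in Control (1.91 ± 0.15, adjusted p = 8.41e-05). Between the alleles 1 cathepsin was called higher in G2 and 2 lower, where 6.72% of all genes were called. Ctsk, a collagenase of bone and fibroblasts, was at 6.3 ± 0.578 CPM in G1, 20.7 ± 3.83 in G2 and 4.02 ± 1.13 in Control, and the alleles differed (1.71 ± 0.27, adjusted p = 0.0145). Ctsd, the main aspartic protease of lysosomes, differed the other way (-1.12 ± 0.16, adjusted p = 0.0113), with 2003 ± 283 CPM in G1, 922 ± 89.7 in G2 and 782 ± 44.2 in Control. Among other protease inhibitors, 6 of 13 tested rose, 1 fell and 6 were not called. Cstb (1.56 ± 0.16, adjusted p = 0.000188) and Wfdc2 (1.92 ± 0.25, adjusted p = 0.000654) were among those that rose. The 1 that fell was Pzp (-3.29 ± 0.56, adjusted p = 0.00213). The remaining tissue inhibitor, Timp4, was low and variable at 0.271 ± 0.0622 CPM in G1, 1.18 ± 1.44 in G2 and 1.92 ± 1.97 in Control and was not called (-1.74 ± 1.03, adjusted p = 0.215). Reck, a membrane-anchored inhibitor of metalloproteinases, was at 4.81 ± 0.536 in G1, 11.1 ± 3.6 in G2 and 8.91 ± 2.72 in Control and was not called (-0.28 ± 0.23, adjusted p = 0.368).

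Of the crosslinking and maturation enzymes beyond the members, 11 of 26 tested rose, 1 fell and 14 were not called, with a median of 0.37, so the share called was not far from the 37.3% of all genes. Bmp1, the procollagen C-proteinase that also activates Lox, rose to 30 ± 2.55 CPM in G1 and 35.1 ± 7.11 in G2, with 10.4 ± 1.14 in Control (1.63 ± 0.15, adjusted p = 0.000139). Loxl3 rose (0.82 ± 0.16, adjusted p = 0.0045) and was higher in G2, at 7.93 ± 0.36, than in G1, at 4.18 ± 0.572 (0.92 ± 0.21, adjusted p = 0.036). Loxl4 was not called against Control (0.01 ± 0.76, adjusted p = 0.993), where it was at 3.61 ± 3.98 CPM and ran from 0.362 to 8.05. Against wild type (single mutant), at 0.814 ± 0.169 CPM, it was higher by 2.16 ± 0.85 without being called (adjusted p = 0.0706). Of the 5 lysyl oxidase genes, 4 were thus called higher against Control.

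Of 31 matrix genes that these enzymes cut or crosslink, 23 rose and 8 were not called, with a median of 1.17. Col1a1, which encodes the partner chain of Col1a2, was at 162 ± 41.6 CPM in G1, 379 ± 127 in G2 and 31.4 ± 6.4 in Control (2.98 ± 0.29), and Fn1, fibronectin, at 198 ± 36.3, 292 ± 85.3 and 42.8 ± 14.2 (2.49 ± 0.26). The basement membrane collagen Col4a1 was at 219 ± 55.7 in Control, 881 ± 55.2 in G1 and 718 ± 114 in G2 (1.86 ± 0.18). In the direct comparison of the alleles 7 of the 31 were called, all higher in G2, and 24 were not, with a median of 1.03. Of all genes, 6.72% were called there, 3.84% higher in G2. Among 14 partners and activators of the members, 5 rose, 1 fell and 8 were not called, again a share near that of all genes. Cd44, a hyaluronan receptor that can hold metalloproteinases at the cell surface, rose from 3.54 ± 1.17 to 149 ± 5.52 CPM in G1 and 53.0 ± 28.3 in G2 (4.64 ± 0.37).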

How the data were processed

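RNA from mouse kidney was measured as poly(A)-primed, single-end reads, per the labels' protocols. Reads were handled with STAR 2.4.1d, HTSeq 0.6.1, Trim Galore, FastQC and CASAVA 1.8.2 on GRCm38, per the submitters' processing notes. Settings, annotation release and strand option were not given in the sources used here. What the authors deposited are raw counts per gene and library. GENCODE M21 gave symbols and coordinates for 46005 of 46517 IDs. Genotype labels gave the groups, and replicates were numbered in accession order.

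Counts were scaled by TMM in edgeR 4.0.16 (R 4.3.3), filtered with filterByExpr at a minimum count of 10 and fitted by quasi-likelihood over the 10 libraries with a pooled spread (common biological variation 0.249 as a coefficient). Standard errors came from the fold change and its F statistic. Adjusted p-values are Benjamini-Hochberg values over all 17823 genes. CPM is counts per 1000000 on TMM-scaled totals, and the 3-count floor was 0.0862 to 0.109 CPM of the unscaled total (counting error only). Named genes beyond the members are up to 4 per list with the lowest p in the risk alleles against Control, plus Loxl3, Loxl4, Timp4, Reck and the nearest genes by pattern. Of these the text gives a selection made with their values known, and 1 is not reported here. The alternatives were RLE factors, library totals, no filter, a minimum count of 30, DESeq2 1.42.0, limma-voom (limma 3.58.1), only the groups compared, and leaving out each library. The members and lists were chosen with earlier results of these data known. The fitting script was tested on simulated data. Tables and figures used Python 3.11.15, pandas 2.3.3, scipy 1.17.1 and matplotlib 3.10.9.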

Additional observations from a re-analysis of the deposited data

Results flagged for a closer look

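Among the genes that the naming rule picks, at most 4 for most lists, and Col1a2, the gene nearest to Mmp2 and Lox in pattern, 11 differed between G2 and G1 by edgeR's quasi-likelihood test (log2 difference ± SE, adjusted over all genes). Of all genes tested, 6.72% were called in this comparison. The lists held further calls among genes not named. Higher in G2 were Ctsk (1.71 ± 0.27, adjusted p = 0.0145), Serpinf2 (1.76 ± 0.34, 0.0235), Pzp (3.52 ± 0.78, 0.0346), Loxl3 (0.92 ± 0.21, 0.036) and Col1a2 (1.23 ± 0.30, 0.046). Col1a2, counted among the 11, was chosen for its likeness to Mmp2 and Lox in these libraries, so its difference is no further result. Higher in G1 were Ctsd (-1.12 ± 0.16, 0.0113), Cstb (-1.09 ± 0.20, 0.0212), Adam10 (-0.59 ± 0.14, 0.038), Adamts1 (-0.95 ± 0.22, 0.0388), Mmp10 (-2.29 ± 0.51, 0.0457) and Wfdc2 (-1.28 ± 0.32, 0.0476). No member of the 10 genes was among them. Each allele had 2 libraries, and of the 11 calls 0 remained without G1 replicate 2, 1 without G2 replicate 2, 2 without G1 replicate 1 and 3 without G2 replicate 1. Of the reference libraries, leaving out wild type (single mutant) replicate 1 kept 4, Control replicate 1 kept 5, and each of the others at least 8. With only the groups compared, 3 remained.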

How the results depend on the processing

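Under all 17 alternatives, 9 members kept their direction and call in the risk alleles against both reference groups, and Mmp9 kept its direction. Leaving out 1 library gave 9 to 10 called members and 4681 to 6883 called genes against Control, and 9 to 10 members and 5214 to 7067 genes against wild type (single mutant). In G1 against Control the ranges were 5 to 9 members and 3397 to 6912 genes (6656 with all libraries), with the lowest counts without G1 replicate 2. In G2 against Control they were 6 to 10 members and 1970 to 4116 genes (3843 with all libraries), lowest without G2 replicate 1, and 2510 genes with only the groups compared. In G2 against G1, 1198 genes were called with all libraries, 22 to 1441 with 1 left out (22 without G1 replicate 2) and 2499 by DESeq2. There 0 to 2 members were called with 1 library left out, 1 with no filter, 2 by DESeq2, 2 by limma-voom and 1 with only the groups compared. Between the reference groups 4 genes were called with no filter, 14 by DESeq2 and 0 to 2 with 1 library left out. The protease to inhibitor balance (2.70) was 3.57 without length scaling and 2.51 to 2.88 with 1 library left out.

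Differences that changed sign were all uncalled. Between the reference groups, leaving out 1 library gave ranges of -4.29 to 1.89 for Mmp7 (-0.48 by limma-voom; the lowest leaves that group at 0 counts and is no bound), -0.40 to 0.06 for Timp2, -0.24 to 0.07 for Timp3, -0.35 to 0.26 for Lox and -0.37 to 0.21 for Loxl1 (-0.03 by limma-voom). In G2 against G1 the ranges were -0.20 to 0.96 for Mmp9, -0.24 to 0.42 for Mmp14 and -0.62 to 0.24 for Timp1. Where an arm is left with 1 library, it is assumed to vary like the other groups. The cause of these changes was not tested. No paired analysis was possible because replicate numbers follow accession order and pair no libraries. Depth limits Mmp7 and Mmp9, whose counts were at most 115 per library.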
